A study of Homo sapiens with 8 samples.

Results

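The serpins described here are 9 genes, SERPINE2 of clade E and SERPINB1, SERPINB2, SERPINB3, SERPINB4, SERPINB5, SERPINB7, SERPINB8 and SERPINB13 of clade B. They are 9 of 20296 genes that a probe of the arrays could be matched to. Each was found by the transcript accession that the array design gives for its probe, and each had 1 probe, printed in 2 spots. The RNA came from MCF10A, an immortalised but not tumour-forming line of human breast epithelium, and from its p53−/− derivative. Cells of both genotypes, p53+/+ and p53−/−, were harvested untreated (0 h), or 12, 24 and 48 h after treatment with ADR (adriamycin, the drug doxorubicin), an anthracycline that damages DNA. The sample labels give 0.5 µg/ml for 2 h, and the published methods name another dose. There was 1 single-colour array for each genotype and time point, 8 in all, so no value has a replicate error. The sources used here do not state whether the p53−/− line is 1 clone, so a difference between lines and a difference caused by p53 cannot be told apart.

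Serpins fold into a metastable shape with an exposed loop. An inhibitory serpin offers this loop to a protease as bait, and after cleavage traps the enzyme in a covalent complex. Clade B serpins lack a classical signal peptide and act mostly inside cells, many of them in stratified and glandular epithelia, whereas SERPINE2 is secreted. Some members, SERPINB5 among them, do not inhibit proteases in this way.

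Of the 9 genes, 7 lie on chromosome 18 within a run of 11 protein-coding genes, in the order SERPINB5, SERPINB13, SERPINB4, SERPINB3, SERPINB7, SERPINB2 and SERPINB8, with SERPINB12, SERPINB11 and SERPINB10 between them. SERPINB1 is on chromosome 6 and SERPINE2 on chromosome 2. The 250 bases before the transcript start (RefSeq, assembly GRCh38.p14) are shown for 3 genes because the results turn on them. SERPINB3 and SERPINB4, a pair of near copies whose levels moved together, lie at chr18:63661894-63662143 and chr18:63644257-63644506, both on the minus strand. They were identical at 247 of the 250 bases (98.8%), and the next most alike pair of genes, SERPINB2 and SERPINB3, at 64.8% after alignment. Capitals mark the 3 bases that differ, at positions -125, -50 and -23 counted from the start.
SERPINB3: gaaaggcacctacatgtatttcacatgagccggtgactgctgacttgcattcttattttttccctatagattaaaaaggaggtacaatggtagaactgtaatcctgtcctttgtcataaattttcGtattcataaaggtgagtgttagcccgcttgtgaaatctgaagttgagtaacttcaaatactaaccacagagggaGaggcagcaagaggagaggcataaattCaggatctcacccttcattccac
SERPINB4: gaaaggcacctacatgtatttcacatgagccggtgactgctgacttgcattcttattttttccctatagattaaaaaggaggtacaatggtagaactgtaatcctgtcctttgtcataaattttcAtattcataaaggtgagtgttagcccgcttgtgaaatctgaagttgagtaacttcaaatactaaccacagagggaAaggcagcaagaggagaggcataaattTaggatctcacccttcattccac
SERPINB5, at chr18:63476708-63476957 on the plus strand, had the smallest adjusted p between the treated genotypes, and capitals mark a match to the AP-1 site, which binds the Fos and Jun factors.
SERPINB5: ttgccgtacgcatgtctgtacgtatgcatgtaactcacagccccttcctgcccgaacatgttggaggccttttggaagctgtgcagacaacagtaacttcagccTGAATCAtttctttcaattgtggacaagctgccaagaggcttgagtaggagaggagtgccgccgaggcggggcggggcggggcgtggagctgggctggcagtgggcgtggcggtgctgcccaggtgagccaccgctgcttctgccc
The AP-1 letters (TGANTCA, either strand) were found in 6 of the 12 windows of the 9 genes and in 6.57% of all 35116 windows of the same length. The windows with a match belonged to SERPINB2, SERPINB5, SERPINB7, SERPINB8 and SERPINB13. The TATA box (TATAAA, either strand) was found in 3 of the 12 windows and in 10.7% of all windows. No window held an exact match to the p53 half-site consensus (RRRCWWGYYY, either strand), which 5.57% of all windows held. Here R is A or G, W is A or T, and Y is C or T. Near matches and sites outside the 250 bases were not looked for, so a p53 site is not excluded for any of these genes. A match is a description of letters in these windows and says nothing of binding.

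Levels are given as the log2 processed signal relative to the 75th percentile of the array, so that a level of 0 is the signal at that percentile, and a difference of 1 is 2-fold. These levels compare 1 gene between arrays and not 1 gene with another. The 75th percentile lay between 661 and 1199 signal units, 55.0 to 67.6% of spots were well above background, and no spot was saturated. Where a probe was not well above background, the lowest level of any probe well above it on that array was used as its bound. If the probe's own level was higher, that level was used. A fold against such a value is given as "at least". The bound is a convention and not a strict limit. SERPINF2, for example, was at -4.17 and not well above background on the p53+/+ 24 h array, where the bound was -4.50. The 10 spike-in probes gave 6 well above background on 7 arrays and 0 on the p53+/+ 48 h array. That array also had the lowest 75th percentile (661), and what this means for the p53+/+ 48 h levels was not tested. A technical SD of each log2 difference was taken from probes printed in many spots, by signal level. It covers the array alone and not the culture.

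The array labelled p53+/+ 0 h did not read like the treated p53+/+ arrays. Over 63 probes that were at least 2 apart on the log2 scale between treated p53+/+ arrays and the p53−/− arrays and varied by at most 0.7 within each group, its median position was -0.0034, where 0 stands for the level of the p53−/− arrays and 1 for that of the treated p53+/+ arrays. On this measure 2 of the 63 were closer to the treated p53+/+ arrays. The selection rested on treated p53+/+ cells, and a probe that ADR changes only where p53 is present would read the same way in untreated p53+/+ cells. Whether the label is in error was not tested, and it is treated as in doubt. CDKN1A, the cell cycle inhibitor p21 and a p53 target, was at a log2 level of -1.14 on this array. The treated p53+/+ arrays gave 2.54, 2.63 and 2.70, and the p53−/− arrays -2.97, -0.96, -0.64 and -0.48. Several markers of cell type also lay at the p53−/− level on this array. For a set of markers, linear levels were added and the log2 of the sum is given, so the brightest probes weigh most. For 4 fibroblast markers it was 2.11 to 2.38 on the treated p53+/+ arrays and 5.70 to 6.07 on the p53−/− arrays. On the array labelled p53+/+ 0 h it was 5.76. Nearly all of the sum was DCN. Of the others, COL1A2 was not well above background on any array. COL1A1 was well above background on all 4 p53−/− arrays and the array labelled p53+/+ 0 h, but on no treated p53+/+ array, and PDGFRB on 3 p53−/− arrays. CDH1, the epithelial cadherin, was at 1.42 to 2.10 in treated p53+/+ cells, -3.55 to -0.94 in p53−/− cells and -3.13 on the array labelled p53+/+ 0 h. Basal epithelial markers were present throughout, with 7 or 8 of 8 well above background on every array. The log2 of their summed levels was 8.83 to 9.37 in treated p53+/+ cells and 7.68 to 8.16 in p53−/− cells. On the array labelled p53+/+ 0 h it was 8.31, between these groups. Of the luminal pair, ESR1 was well above background on 7 of the 8 arrays and PGR on none. On each array 1 or 2 of the 2 leukocyte markers measured were above it. The log2 of the summed levels of the 2 endothelial markers was -3.19 to -2.80 in treated p53+/+ cells and -1.73 to -1.24 in p53−/− cells. On the array labelled p53+/+ 0 h it was -1.61. The part of these differences in the serpin results was not tested. In bulk RNA, fewer cells of a type and less RNA per cell cannot be told apart. Results from 0 h in p53+/+ cells are given against the p53−/− 0 h array too, and the treated arrays of both genotypes are compared directly at matched times.

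Between treated p53+/+ and treated p53−/− cells, SERPINB5 and SERPINB7 were higher and SERPINE2 was lower at 12, 24 and 48 h. SERPINB3 and SERPINB4 were lower in p53+/+ cells at 12 and 24 h and less than 2-fold lower at 48 h. SERPINB1 and SERPINB8 differed by less than 2-fold at every time. SERPINB2 was near background in most arrays and SERPINB13 was not well above background on any of the 8. Of the 8 genes measured above background on at least 1 array, 2 were at least 2-fold higher at all 3 times, against 5.71% of 28947 probes, and 1 was at least 2-fold lower, against 4.58%. The 6 treated arrays were also fitted with limma, with time points standing in for replicates of a genotype. The fit called 2 of the 8 genes higher in p53+/+ cells, against 10.6% of probes, and 1 lower, against 7.4%, at a Benjamini-Hochberg adjusted p under 0.05. They were the same 3 genes, SERPINB5, SERPINB7 and SERPINE2. Its p-values set the difference against the movement over time, not against the spread of cultures. The median mean difference over the 8 genes was -0.27 on the log2 scale, and 0.09 over all probes tested.

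**Figure D1:**
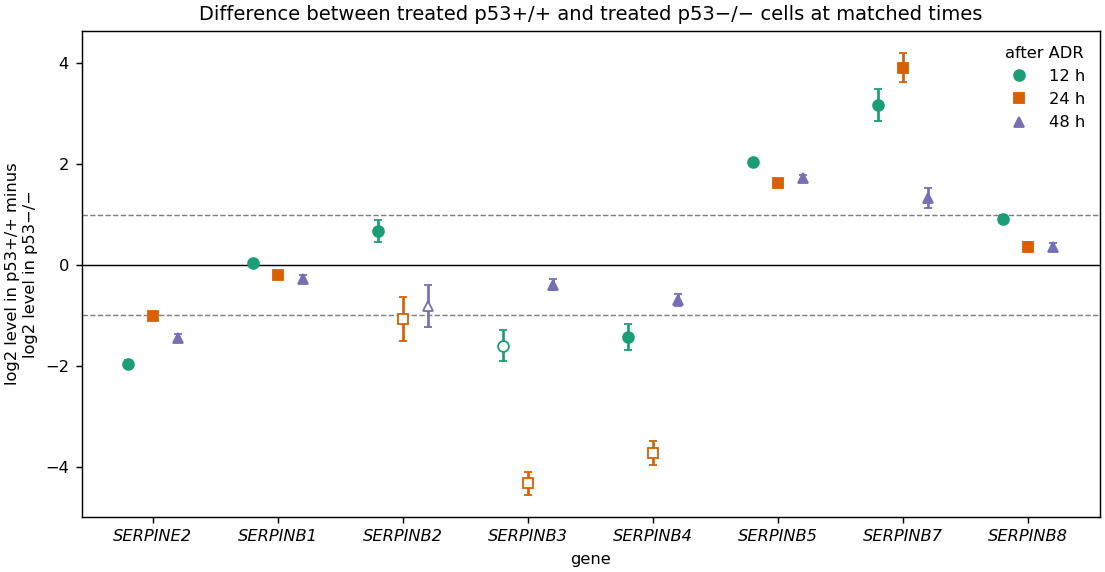
Log2 level in treated p53+/+ cells minus that in treated p53−/− cells for the 8 serpins measured above background, at 12, 24 and 48 h after ADR. Bars are the technical SD, dashed lines mark 2-fold, and open symbols are differences in which 1 or both arrays were not well above background. SERPINB5 and SERPINB7 lie above the upper line and SERPINE2 below the lower line at all 3 times, SERPINE2 at 24 h only just (-1.02).

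SERPINE2, also called protease nexin 1, is a secreted inhibitor of thrombin, urokinase and related serine proteases. The array labelled p53+/+ 0 h gave a log2 level of 4.34, and the later p53+/+ arrays gave 1.93, 2.13 and 1.31 at 12, 24 and 48 h. The p53−/− arrays gave 4.09, 3.89, 3.15 and 2.75 at 0, 12, 24 and 48 h. Every treated p53+/+ array thus lay below every p53−/− array. The treated p53+/+ level was 3.88-fold lower than the p53−/− level at 12 h, 2.03-fold lower at 24 h and 2.71-fold lower at 48 h, with log2 differences of -1.95, -1.02 and -1.44 and a technical SD of 0.07 for each. In limma the mean log2 difference was -1.47 with a standard error of 0.36 and an adjusted p of 0.0354. The level also moved with time in p53−/− cells, by -0.21, -0.94 and -1.34 from 0 h on the log2 scale, and was 2.53-fold below the 0 h level at 48 h. In p53+/+ cells the log2 change was -2.41, -2.20 and -3.02 from the array labelled p53+/+ 0 h and -2.16, -1.96 and -2.78 from p53−/− 0 h. The 0 h arrays themselves differed by 0.25.

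SERPINB5, or maspin, is a non-inhibitory serpin of mammary and other epithelia. It was among the brighter probes, with a log2 level of 3.87 on the array labelled p53+/+ 0 h that became 5.26, 5.46 and 5.55 on the p53+/+ arrays of 12, 24 and 48 h. Without p53 the 0 h array gave 4.16, and the treated arrays 3.22, 3.83 and 3.82. No treated p53+/+ array overlapped the p53−/− arrays, and the 3 treated p53+/+ levels spanned less than the p53−/− ones. The p53+/+ level was 4.12-, 3.09- and 3.32-fold higher at 12, 24 and 48 h, with log2 differences of 2.04, 1.63 and 1.73 and a technical SD of 0.06. In limma the mean log2 difference was 1.80 with a standard error of 0.23 and an adjusted p of 0.00462. From 0 h, the log2 level in p53+/+ cells was higher by 1.40, 1.59 and 1.68 against the array labelled p53+/+ 0 h, and by 1.10, 1.30 and 1.39 against p53−/− 0 h. In p53−/− cells the log2 change was -0.94, -0.33 and -0.35, short of 2-fold at each time. The promoter window with the AP-1 letters shown above is the one of this gene, and a link of these letters to its levels was not tested.

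SERPINB7, or megsin, is best known from the outer epidermis, where its loss causes a skin disease. Its log2 level was -4.73 on the array labelled p53+/+ 0 h, then -1.78, -0.87 and -2.75 in p53+/+ cells. Without p53 it was not well above background at 0 h (-5.49) and was -4.95, -4.79 and -4.08 after ADR. The p53+/+ level was highest at 24 h and by 48 h had dropped by 1.88 on the log2 scale (3.67-fold), whereas the p53−/− level was highest at 48 h. The treated p53+/+ arrays were 8.98-fold higher than the p53−/− arrays at 12 h, 15.0-fold higher at 24 h and 2.50-fold higher at 48 h. The log2 differences were 3.17, 3.91 and 1.32, with technical SDs of 0.31, 0.28 and 0.20. Its mean log2 difference in limma was 2.80 with a standard error of 0.50 and an adjusted p of 0.0133. From the array labelled p53+/+ 0 h, the log2 change was 2.95, 3.85 and 1.97. Against p53−/− 0 h the level was at least 11.0-, 20.7- and 5.62-fold higher. In p53−/− cells the level was at least 2.25-fold higher at 48 h than at 0 h.

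The limma calls changed when a time point was left out, and those of the size rule changed with the scaling. Leaving out a time lowered the residual degrees of freedom from 4 to 2. Calls over all probes fell from 5201 to 2670, 292 and 2571 without the 12, 24 and 48 h arrays. Whether the lost serpin calls reflect given times or this general fall was not tested. Without the 24 h arrays none of the 3 passed in limma, with adjusted p of 0.0961 for SERPINB5, 0.134 for SERPINB7 and 0.191 for SERPINE2. SERPINE2 did not pass without the 12 h arrays (0.114) or without the 48 h arrays (0.0619), nor SERPINB7 without the 12 h arrays (0.0856). Over all alternatives the adjusted p ranged from 0.000616 to 0.0961 for SERPINB5, from 0.00381 to 0.134 for SERPINB7 and from 0.00755 to 0.191 for SERPINE2. With no scaling between arrays, the log2 difference at 48 h was 0.87 for SERPINB5 and 0.47 for SERPINB7, both under 2-fold. That setting made SERPINB3 and SERPINB4 lower by log2 differences of -1.25 and -1.56 at 48 h, so that both passed the size rule at all 3 times. It also made SERPINB1 a call of limma, with a mean log2 difference of -0.74 and an adjusted p of 0.0385, and of -1.13 at 48 h.

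SERPINB3 and SERPINB4, the squamous cell carcinoma antigens, are inhibitors of cysteine proteases such as cathepsin L and of chymotrypsin-like serine proteases, respectively. SERPINB3 gave a log2 level of -2.79 for the array labelled p53+/+ 0 h, then -4.43 and -6.55 at 12 and 24 h, both not well above background, and -1.71 at 48 h. The p53−/− arrays gave -4.58, -2.84, -2.22 and -1.32. That is a level higher at each later time in p53−/− cells and a trough at 24 h in p53+/+ cells. SERPINB4 went the same way, with log2 levels of -2.87, -4.14, -6.12 (not well above background) and -2.40 in p53+/+ cells. Its p53−/− levels were -4.34, -2.71, -2.39 and -1.70.

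In p53−/− cells both genes rose at least 2-fold from 0 h at all 3 times, 2 of the 8 genes, against 2.64% of probes. None of the 8 fell at all 3 times, against 1.84% of probes. The log2 change from 0 h was 1.74, 2.36 and 3.26 for SERPINB3 and 1.63, 1.95 and 2.64 for SERPINB4, which made the 48 h levels 9.58- and 6.23-fold higher than at 0 h. Their technical SDs lay between 0.24 and 0.28. In p53+/+ cells SERPINB3 was at least 3.02-fold lower than in p53−/− cells at 12 h and at least 4.86-fold lower at 24 h, and at 48 h the log2 difference was -0.39. SERPINB4 was 2.69-fold lower at 12 h, at least 4.33-fold lower at 24 h and at -0.70 on the log2 scale at 48 h. With normexp background correction the differences at 24 h were smaller than these, at -1.72 for SERPINB3 and -1.19 for SERPINB4 on the log2 scale. From 24 h to 48 h the p53+/+ level was higher by at least 6.94-fold for SERPINB3 and at least 4.31-fold for SERPINB4. This rise rests on the p53+/+ 48 h array, on which 0 spike-in probes were well above background. The treated groups overlapped, and limma called neither gene, with mean log2 differences of -2.10 and -1.95, standard errors of 1.15 and 0.88 and adjusted p of 0.249 and 0.173.

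The p53+/+ change of this pair depended on the baseline. From the array labelled p53+/+ 0 h, SERPINB3 was at least 3.12-fold lower at 12 h and at least 3.28-fold lower at 24 h, then higher by 1.08 on the log2 scale at 48 h. SERPINB4 changed by -1.26 at 12 h, was at least 3.10-fold lower at 24 h and changed by 0.48 at 48 h. Against p53−/− 0 h, no fold can be given for SERPINB3 at 12 and 24 h, when it was not well above background, and its log2 change at 48 h was 2.87. SERPINB4 changed by 0.20 at 12 h against that array, was at least 1.12-fold lower at 24 h and changed by 1.94 at 48 h. The 0 h arrays themselves differed, and SERPINB3 and SERPINB4 were 3.46- and 2.76-fold higher on the array labelled p53+/+ 0 h. SERPINB2 was at least 4.49-fold higher there, which makes 3 of the 8 genes higher, against 4.88% of probes, and 0 lower, against 5.26%. The genes are near copies and probe sequences were not used here, so how much signal their probes share was not tested. With normexp background correction, no gene rose 2-fold at all 3 times in p53−/− cells.

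**Figure D2:**
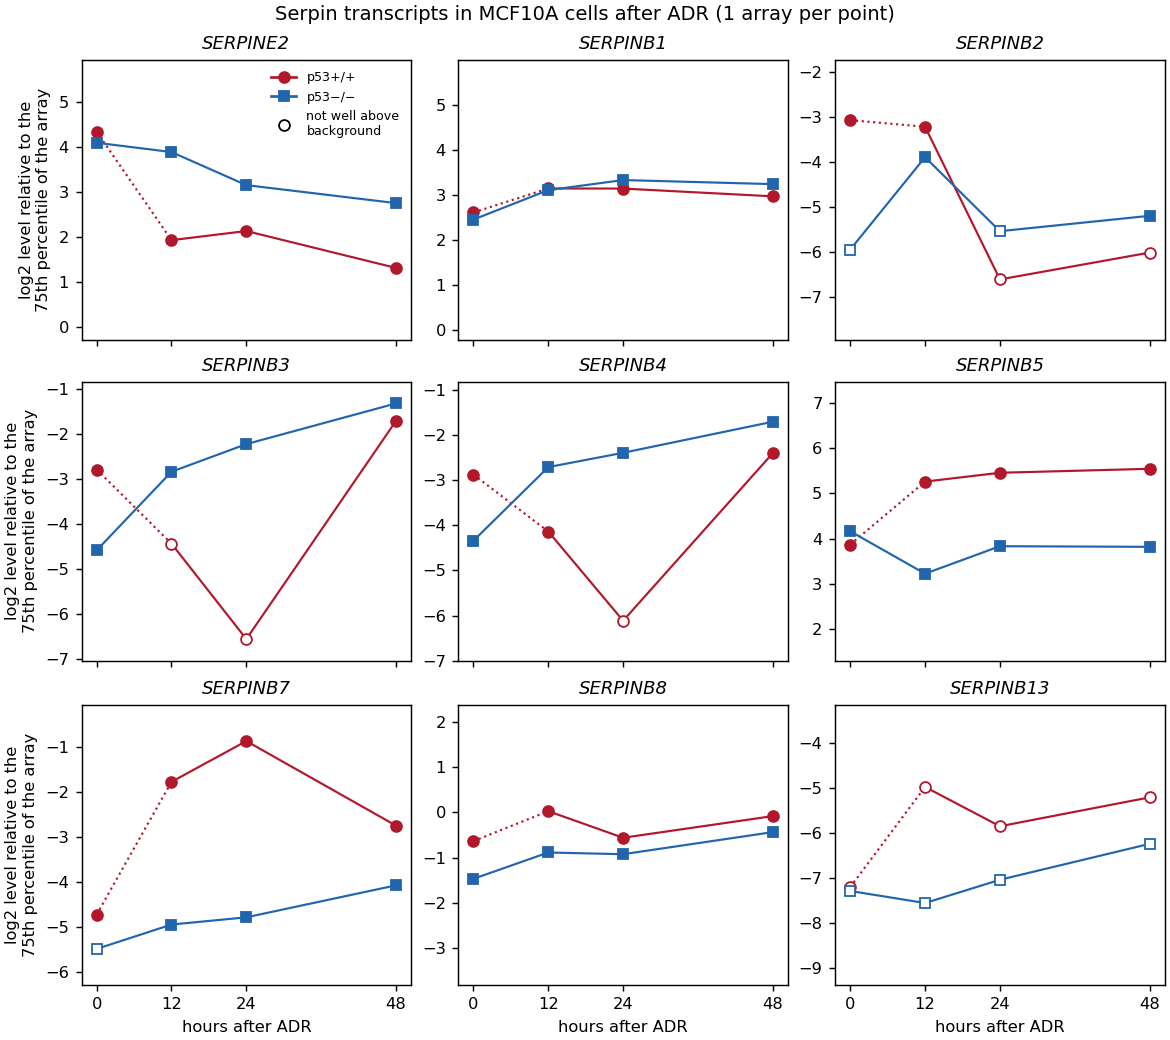
Log2 level relative to the 75th percentile of the array against hours after ADR, for the 9 serpins, p53+/+ as red circles and p53−/− as blue squares, 1 array per point, all panels spanning at least 6.2 log2 units. Open symbols are not well above background, and the dotted line leads from the array labelled p53+/+ 0 h. SERPINB3 and SERPINB4 share a trough at 24 h in p53+/+ cells (-6.55 and -6.12), SERPINB7 peaks there (-0.87), and SERPINB13 has open symbols only.

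Counted from 0 h in p53+/+ cells, 2 of the 8 genes, SERPINB5 and SERPINB7, were at least 2-fold higher at all 3 times than on the array labelled p53+/+ 0 h, against 7.94% of probes, and 1, SERPINE2, was lower, against 5.78%. With p53−/− 0 h as the baseline the same 3 genes were counted, against 7.95 and 5.66% of probes.

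SERPINB1, an inhibitor of neutrophil elastase, cathepsin G and proteinase 3 that is also found in epithelia, was nearly even. Its log2 level was 2.61 on the array labelled p53+/+ 0 h, followed by 3.14, 3.14 and 2.96 on the treated p53+/+ arrays, against 2.45, 3.10, 3.32 and 3.23 in p53−/− cells. The treated genotypes overlapped and differed by 0.04, -0.19 and -0.27 on the log2 scale, with technical SDs of 0.06 or 0.07 and an adjusted p of 0.617 in limma. From 0 h the log2 change was 0.53, 0.53 and 0.36 for p53+/+ cells (0.69, 0.69 and 0.52 against p53−/− 0 h) and, for p53−/− cells, 0.65, 0.88 and 0.79, below 2-fold throughout.

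SERPINB8 is known to inhibit furin, a proprotein convertase. Its log2 level was -0.64, 0.03, -0.56 and -0.08 on the p53+/+ arrays of 0, 12, 24 and 48 h, the first of them the array labelled p53+/+ 0 h. The p53−/− arrays of these times gave -1.47, -0.89, -0.93 and -0.44. Each p53+/+ array was above the p53−/− array of its time, by 0.84 at 0 h and by 0.92, 0.36 and 0.36 after ADR on the log2 scale, with technical SDs of 0.08 or 0.09. The treated groups overlapped, and the mean log2 difference of 0.55 did not pass in limma (adjusted p of 0.171). From 0 h the log2 change in p53+/+ cells was 0.66, 0.07 and 0.55 against the array labelled p53+/+ 0 h. Against p53−/− 0 h the p53+/+ level was 2.83-, 1.88- and 2.62-fold higher, past 2-fold at 12 and 48 h, so this depended on the baseline. In p53−/− cells the log2 change was 0.58, 0.55 and 1.04, past 2-fold at 48 h. With no scaling the mean treated difference was -0.05.

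SERPINB2, the urokinase inhibitor PAI-2, was well above background on 4 of the 8 arrays. They were the array labelled p53+/+ 0 h (-3.07), p53+/+ 12 h (-3.22), p53−/− 12 h (-3.90) and p53−/− 48 h (-5.20). On the other arrays the log2 level was -6.61 and -6.01 in p53+/+ cells at 24 and 48 h, and -5.95 and -5.54 in p53−/− cells at 0 and 24 h. In both genotypes the 12 h array was thus the highest of the treated ones. At 12 h the genotypes differed by 0.68 with a technical SD of 0.21. At 24 h both were at background, so no fold is given. In p53−/− cells SERPINB2 was at least 2.54-fold higher at 12 h than at 0 h. In p53+/+ cells it was at least 2.69- and 2.93-fold lower at 24 and 48 h than on the array labelled p53+/+ 0 h. Against p53−/− 0 h it was at least 4.06-fold higher at 12 h, and at 24 and 48 h no fold can be given. Limma gave an adjusted p of 0.801. The mean log2 difference of -0.40 turned to 0.42 with normexp.

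SERPINB13, also called headpin or hurpin, inhibits cathepsins L and K and belongs to differentiating squamous epithelium. Its log2 level was between -7.21 and -4.99 on the p53+/+ arrays and between -7.56 and -6.25 on the p53−/− arrays, all not well above background, so no fold is given.

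In gene order along chromosome 18, members that were higher in p53+/+ cells and members that were lower lay in the same run of genes. SERPINB5 at one end was higher. SERPINB4 and SERPINB3 were lower at 12 and 24 h, though limma called neither. SERPINB7, the next member, was higher. The intervening SERPINB12, SERPINB13, SERPINB11 and SERPINB10 were not well above background on any array.

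**Figure D3:**
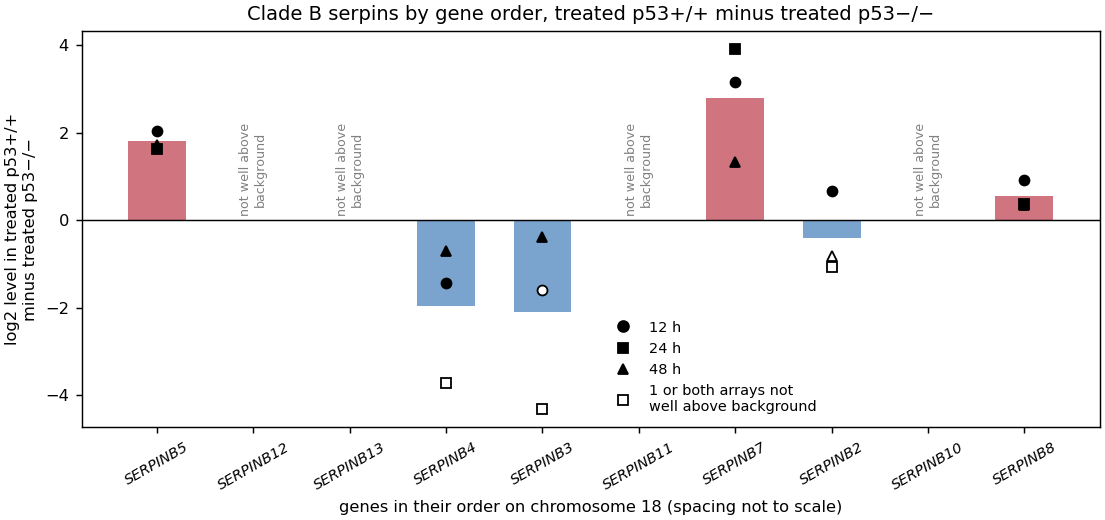
Log2 level in treated p53+/+ cells minus treated p53−/− cells for the clade B serpins in their order on chromosome 18. Bars are the mean of 3 times, symbols the single times, open where 1 or both arrays were not well above background. The bars of SERPINB5 (1.80) and SERPINB7 (2.80) point up, and those of SERPINB4 (-1.95) and SERPINB3 (-2.10) between them point down.

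Among all 28947 probes, the mean treated difference of SERPINB7 stood at the 98.2 percentile and that of SERPINB5 at the 95.4 percentile. SERPINE2 was at the 4.96 percentile at the other end, and SERPINB8 and SERPINB1 were at 76.4 and 35.5. These are positions among probes and not tests. None is given for SERPINB2, SERPINB3 and SERPINB4, whose means include values not well above background. With normexp the means of SERPINB3 and SERPINB4 were -0.88 and -0.70.

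**Figure D4:**
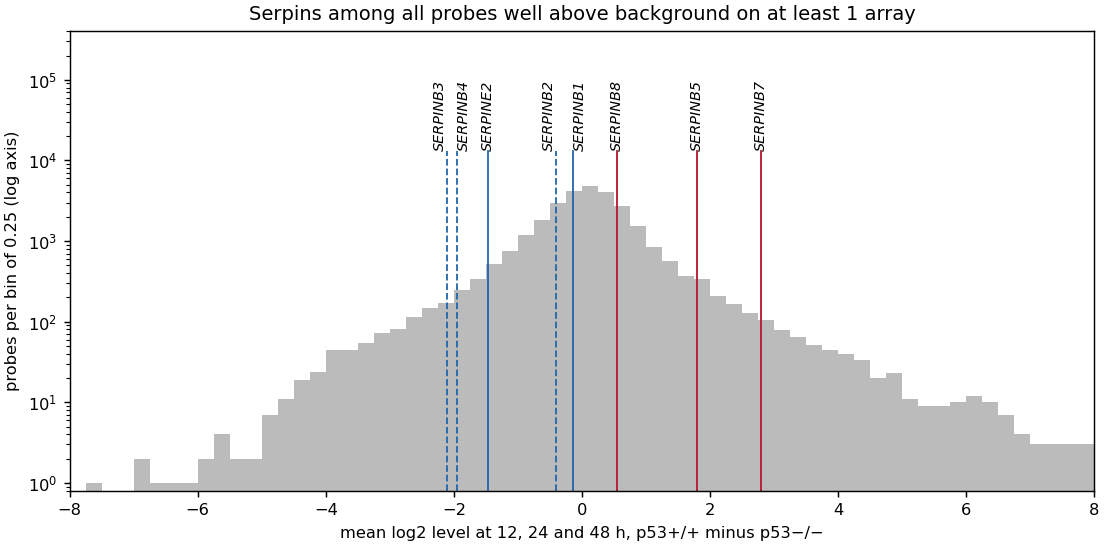
Number of probes by mean log2 level of treated p53+/+ minus treated p53−/− cells over 12, 24 and 48 h, in bins of 0.25 with a log axis, for all 28947 probes that were well above background somewhere among the 8 arrays. Vertical lines mark the 8 serpins, red above 0 and blue below, dashed where the mean includes values not well above background. SERPINB7 lies at 2.80 and SERPINE2 at -1.47, both inside the span of the other probes.

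Of 16 other serpins on the arrays, 12 were well above background on at least 1 array. By the size rule 2 were higher in treated p53+/+ cells at all 3 times, against 5.71% of all probes, and 1 was lower, against 4.58%. Limma called 1 higher, against 10.6%, and 1 lower, against 7.4%. Their median mean difference was 0.19 on the log2 scale. SERPINF1, the secreted antiangiogenic factor PEDF, was higher by 1.81, 2.98 and 1.46 at 12, 24 and 48 h (limma adjusted p of 0.0141). SERPINA1, the elastase inhibitor alpha-1 antitrypsin, was higher by 1.29, 1.31 and 1.48 but did not pass in limma (adjusted p of 0.0976). SERPINB6, an intracellular inhibitor of trypsin-like proteases and cathepsin G, was lower by log2 differences of -1.54, -2.06 and -2.12 (limma adjusted p of 0.00218).

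Of 19 proteases, receptors and partners of these serpins, 14 were well above background on at least 1 array. By the size rule 3 were higher in treated p53+/+ cells and 0 lower, against the same 5.71 and 4.58% of probes. Limma called 5 higher and 1 lower, against 10.6 and 7.4%. Their median mean difference was 0.20. PRSS8, the membrane-anchored protease prostasin, had log2 levels of 2.57, 3.23 and 3.63 in treated p53+/+ cells and -2.13, -1.71 and -0.63 in treated p53−/− cells, with differences of 4.70, 4.93 and 4.25 and an adjusted p of 0.00195 in limma. ST14, the transmembrane protease matriptase, which acts with prostasin in epithelia, was at 1.64, 1.90 and 1.70 against -1.31, -1.20 and -0.99, with differences of 2.95, 3.10 and 2.69 and an adjusted p of 0.000508 in limma. Both were low on the array labelled p53+/+ 0 h, at -1.72 and -1.33. PLAT, the tissue plasminogen activator, which SERPINE2 can inhibit, was higher by 1.05, 1.18 and 1.07 (limma adjusted p of 0.0480). LRP1, an endocytic receptor that clears serpin and protease complexes, differed by 0.85, 2.12 and 1.03 (limma adjusted p of 0.0443), and KLK5, a kallikrein of the epidermis, by 1.27, 0.65 and 0.71 (limma adjusted p of 0.0308). PLAUR, the urokinase receptor, was the gene called lower, with log2 differences of -1.31, -0.66 and -0.68 (limma adjusted p of 0.0367). The protease urokinase itself, PLAU, differed by -0.23, 0.15 and 0.07.

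Over the 8 arrays SERPINB3 had the widest measured range of the 8 genes above background, 5.23 on the log2 scale, but its lowest value is at background. With such values at their bound its range was at least 3.26, and that of SERPINB7 at least 4.37, so the order of the ranges is not settled. SERPINB3 is used here by the rule on measured ranges. Among 12871 genes well above background on at least 6 arrays and in no serpin list, the 3 whose log2 levels followed it most closely were ZNF17 (Pearson r of 0.944 over 8 arrays), C10orf67 (0.938) and STEEP1 (0.929). The arrays differ in depth of signal, and the lowest SERPINB3 values lie at background, so these are descriptions only. The levels of C10orf67 had the same lowest array, p53+/+ 24 h (-4.68), and the same highest, p53−/− 48 h (-1.28). ZNF17 moved little, from -2.49 (p53+/+ 24 h) to -1.90 (p53+/+ 48 h). STEEP1 also moved little, from -3.16 (p53+/+ 24 h) to -2.29 (p53−/− 48 h). The 3 were picked as the highest r among 12871 genes, which favours high values.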

How the data were processed

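The authors deposited, for each of 8 Agilent SurePrint G3 arrays of MCF10A RNA, the output of Agilent Feature Extraction (version 10.7.3.1 per the submitters' processing notes), whose processed signal is an intensity on a linear scale, already corrected for background. The series-wide table repeats these intensities (503808 of 503808 values equal within a relative tolerance of 1e-06). No normalization between arrays is given in the sources used here.

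Samples were grouped by the labels. Of 62976 spots per array, 58717 were not controls. Spots that the scanner software flagged for unevenness or as outliers were dropped, leaving 42391 of 42405 probes. The log2 processed signal minus the log2 75th percentile of its array was averaged across each probe's spots. Probes were named by transcript accession through a RefSeq gene table of GRCh38.p14 (27227 probes, 20296 genes), and a gene was read from its probe with the highest mean. Promoter windows are from RefSeq. Some genes are not reported here.

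The size rule was a change of at least 2-fold at all 3 times. For limma 3.58.1 (lmFit, eBayes, R 4.3.3), the 28947 probes that 1 or more arrays showed well above background were fitted on genotype over the 6 treated arrays, with 4 residual degrees of freedom and p adjusted over all these probes. This fit was tested on simulated data with 28947 probes, of which 100 were changed by each size. It recovered 0% of log2 changes of 1 and 36% of log2 changes of 2, with 0 false calls. In the data it called 5201 probes, so these rates need not hold there. The simulated noise was independent between arrays, so the use of time points as replicates was not tested. The alternatives were other scalings, normexp background correction (offset 50), all probes of a gene, other filters on dim probes, a size rule of 3-fold or at 2 of 3 times only, omission of each treated time, and time point as a block. All 9 members are named, with list genes past the size rule or called by limma, and the 3 genes most like the member of widest range. The members and lists were chosen with earlier results of these data known. PLAU was named after its values were seen. Python 3.11.15, numpy 2.4.6, pandas 2.3.3 and matplotlib 3.10.9 were used. The number of arrays limits the precision.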

Additional observations from a re-analysis of the deposited data

Results flagged for a closer look

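Measured from the 0 h array of each label, the log2 change of SERPINB5 and of SERPINB2 had opposite signs in the genotypes at all 3 times. For SERPINB5 the mean log2 change was higher in p53+/+ than in p53−/− cells by 2.10. For SERPINB2 the mean log2 change in p53+/+ minus that in p53−/− cells was -3.27, but this is no measured size, since 4 of its 8 arrays were not well above background and the p53+/+ change at 12 h (-0.15) was within its technical SD of 0.20. With p53−/− 0 h as the baseline of both genotypes the differences were 1.80 for SERPINB5 and -0.40 for SERPINB2, and SERPINB2 was then higher at 12 h in both genotypes. These differences from 0 h were not tested, since each condition is 1 array.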

How the results depend on the processing

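Of 96 counts of the serpins under the alternatives, 76 stayed within 1.5 times and 20 moved. A count has no sign to reverse, and some stayed at 0 throughout. Of 144 values of the single genes, 81 stayed and 63 moved. With p53−/− 0 h as the baseline, the mean p53+/+ change of SERPINB2, SERPINB3 and SERPINB4 turned from lower to higher. These means include values not well above background. For higher counts between treated genotypes (2 genes as reported), no scaling gave 0, and normexp and a 3-fold rule 1 each. For lower counts (1 as reported), no scaling, 2 of 3 time points and leaving out the 48 h arrays gave 3 each, and the 3-fold rule 0. From the array labelled p53+/+ 0 h, the 3-fold rule gave 1 higher (2 as reported), and lower counts (1 as reported) were 4 with 2 of 3 time points, 2 without the 12 h arrays and 3 without the 48 h arrays. Normexp gave 0 higher in p53−/− cells (2 as reported) and 1 higher at 0 h (3 as reported). In limma the higher count (2) was 1 with probes well above background on all 8 arrays, where SERPINB7 was not tested, 1 without the 12 h arrays and 0 without the 24 h arrays. It was 3 with no filter on dim probes. The added gene was SERPINB13 (limma adjusted p of 0.0248), which was not well above background on any array. The lower count (1) was 2 with no scaling, SERPINB1 being the added gene, and 0 without the 12 h, the 24 h or the 48 h arrays. The causes of the other moves were not tested. Over all probes limma called 5201, of which 58.8% were higher in p53+/+ cells. The calls and shares were 4927 and 45.4% with the median, 5110 and 48.3% with quantile normalization, 9393 and 14.5% with no scaling, 9635 and 72.6% with normexp, 12536 and 78.4% with no filter, and 2670, 292 and 2571 calls without the 12, 24 and 48 h arrays. With no scaling the median treated difference over all probes was -0.32, -0.50 and -0.68 at 12, 24 and 48 h, against 0.13, -0.02 and 0.18 as reported. Time point as a block, which pairs the genotypes by time, gave 4451 calls and changed no call of the 8 serpins. Signal over background limits SERPINB2, SERPINB3, SERPINB4, SERPINB7 and SERPINB13.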
